A study of Caenorhabditis elegans with 10 samples.

Results

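The genes described here mark the intestine of Caenorhabditis elegans and its uptake surface. They are elt-2, elt-7, ges-1, pho-1, pept-1, act-5 and ifb-2, 7 of the 17118 genes that a probe set of the array named alone. The members were chosen by gene symbol, and each was read on its brightest probe set over all 10 arrays, out of 9 probe sets that name only a member. All 7 were bright enough to test. All probe sets of ges-1, pho-1, act-5 and ifb-2 carry a suffix that marks probes shared between transcripts.

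RNA came from whole animals, most of them L4 larvae, with 200 to 500 worms in a sample. The groups were wdr-23 mutants on bacteria carrying skn-1 RNAi (n = 3), the same mutants on control RNAi (n = 4) and the wild-type strain N2 on control RNAi (n = 3). The mutant allele is written tm1718 in the sample labels and tm1817 in the series text, and all groups ate HT115 bacteria on plates that held carbenicillin (50 ug/ml) and lactose (0.2%). Wild type on skn-1 RNAi is not analysed here, so whether the RNAi acts differently in the mutant cannot be tested. The labels call the replicates biological without saying that they were separate cultures, so p-values measure only the spread between these samples.

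The worm intestine is a tube of large epithelial cells that digests and absorbs food, stores nutrients and carries out most detoxification. The GATA transcription factors ELT-2 and ELT-7 switch on and maintain its genes. GES-1 is a gut esterase and PHO-1 an intestinal acid phosphatase. PEPT-1 carries short peptides across the apical membrane together with protons. ACT-5 is the actin of the microvilli, and IFB-2 is an intermediate filament protein of the terminal web beneath them. WDR-23 marks the transcription factor SKN-1, a relative of the Nrf factors, for removal, and SKN-1 acts in the intestine among other cells.

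Array signals are linear values on a scale shared by all arrays, and array medians were 118 to 125 in skn-1 RNAi mutants, 135 to 139.7 in the mutant with control RNAi and 113 to 119.2 in N2. The skn-1 transcript was at 237 to 289 in skn-1 RNAi mutants, against 381 to 547 in the mutant with control RNAi and 413 to 534 in N2, so the knockdown left 54.3% of the mean signal of the mutant control arrays. The wdr-23 signal was 882 to 919 in skn-1 RNAi mutants, 2784 to 3858 in the mutant with control RNAi and 725 to 1026 in N2. Where its probes lie relative to the deletion is not given, so it does not check the genotype. All 10 markers on each of the lists for body-wall muscle, epidermis, neurons, pharynx and germ line passed the filter on dim probe sets. In RNA from whole animals, fewer intestinal cells and less RNA per intestinal cell cannot be told apart.

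**Figure D1:**
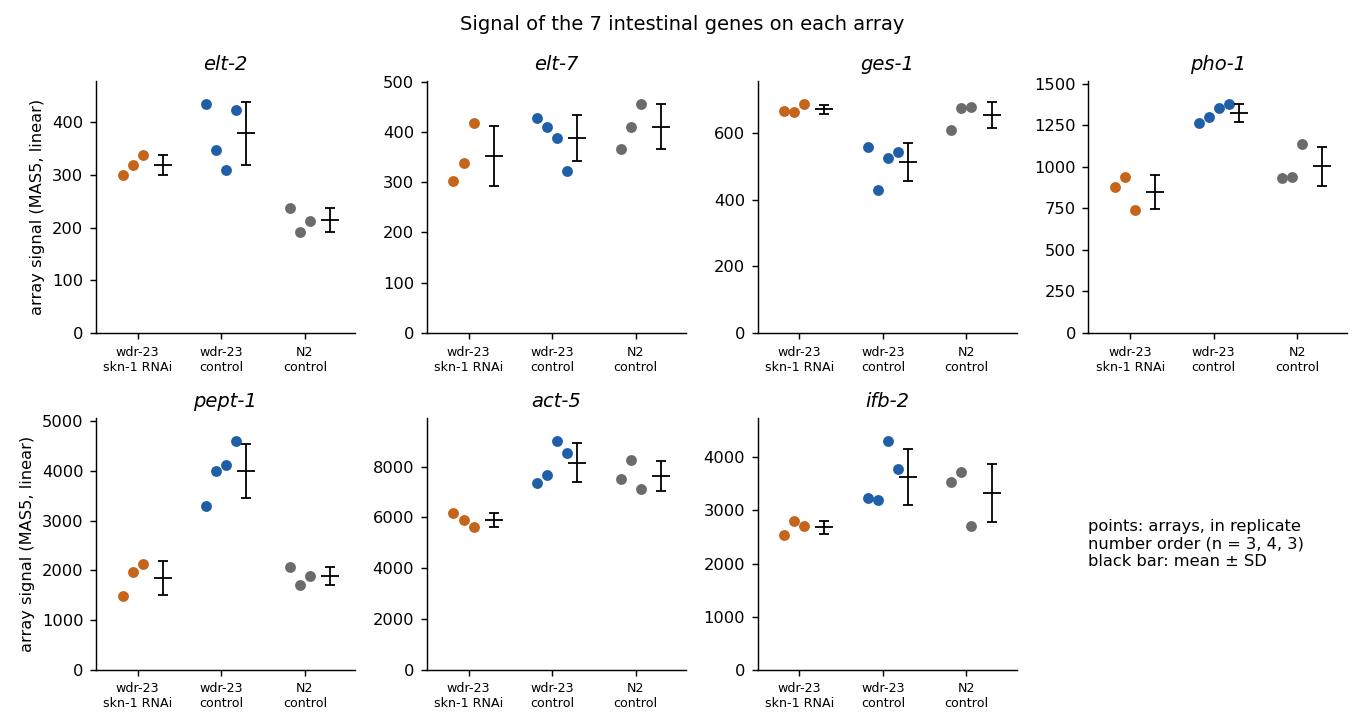
Linear array signal (vertical axes, starting at 0) of each of the 7 genes on the 3, 4 and 3 arrays of wdr-23 with skn-1 RNAi, wdr-23 with control RNAi and N2 with control RNAi. Points are arrays and black bars are means with SD. The 4 mutant control arrays lie above all others for pept-1 and pho-1 and below all others for ges-1.

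Loss of wdr-23 with skn-1 left in place was read from mutants and N2 on control RNAi. The peptide transporter pept-1, the GATA factor elt-2 and the phosphatase pho-1 were higher in the mutant, and the esterase ges-1 was lower. The other GATA factor, elt-7, and the genes of the brush border and terminal web, act-5 and ifb-2, did not pass the test. In numbers, 3 of 7 members were called higher and 1 lower at an adjusted p under 0.05, which is 4 of 7, where 29% of the 12061 genes tested were called (18.9% higher and 10.2% lower). The groups did not overlap for these 4 members, as for 35.8% of all genes tested. The median log2 change of the members was 0.13, beside 0.03 over all genes tested.

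The transporter gene pept-1 showed the largest change of the 7. Its signals were 3282, 3999, 4118 and 4606 on the mutant arrays, against 2064, 1704 and 1889 in N2. The lowest mutant array was far above the highest of N2. The means were 4001 ± 546 (SD, n = 4) in the mutant and 1886 ± 179.8 (SD, n = 3) in N2, a 2.10-fold rise or 1.07 on the log2 scale (SE 0.14, limma adjusted p = 2.36e-05). Among the 12061 genes tested, 96.5% had a lower log2 change in this comparison.

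The GATA factor gene elt-2 had signals of 434, 347, 309.7 and 424 in the mutant, against 237, 192 and 213 in N2. The lowest mutant array was above the highest N2 array. Its mean was 379 ± 60.4 (SD, n = 4) in the mutant and 214 ± 22.7 (SD, n = 3) in N2, a 1.697-fold rise or 0.76 on the log2 scale (SE 0.14, limma adjusted p = 0.000791). The other, dimmer elt-2 probe set also rose, with 181, 182, 146 and 201 in the mutant against 125, 93.5 and 104 in N2 (log2 change 0.64, SE 0.21, adjusted p = 0.0307).

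Its relative elt-7 gave signals of 428, 411, 388 and 323 in the mutant and 366, 409 and 456 in N2, with the groups interleaved. The log2 change was -0.08 (SE 0.14, 95% interval -0.38 to 0.22, adjusted p = 0.697). To compare the pair directly, the log2 value of elt-7 was subtracted from that of elt-2 on each array, both centred on their own means. This difference was 0.0098 to 0.69 in the mutant and -0.71 to -0.27 in N2. The change of elt-2 was thus above that of elt-7 by 0.84 (log2) between mutant and N2. The same quantity was 0.75 between the mutant with skn-1 RNAi and N2 and -0.09 between skn-1 RNAi and control RNAi in the mutant. The pair was chosen after its values were seen, so these are descriptions with no test.

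The digestive enzymes went opposite ways, by small amounts. The phosphatase gene pho-1 had signals of 1263, 1302, 1357 and 1379 in the mutant, against 931, 938 and 1139.6 in N2. All mutant arrays were above the N2 arrays, and the log2 change was 0.40 (SE 0.12, adjusted p = 0.0189). The dimmer pho-1 probe set had a log2 change of 0.36 and did not pass (adjusted p = 0.0609), with groups that overlapped. The pho-1 call ended without N2 replicate 1 (0.35, adjusted p = 0.0851) or N2 replicate 2 (0.36, adjusted p = 0.0743), and with median centring of the arrays (0.1996, adjusted p = 0.193).

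The esterase gene ges-1 had signals of 558, 428, 526 and 542 in the mutant, against 609, 676 and 679 in N2. Here every mutant array was below every N2 array. The means were 513 ± 58.4 (SD, n = 4) in the mutant and 655 ± 39.5 (SD, n = 3) in N2, or -0.34 on the log2 scale (SE 0.12, limma adjusted p = 0.0419). This call was close to the threshold. It ended without any of the N2 arrays 1, 2 or 3, any of the skn-1 RNAi arrays 1, 2 or 3, or mutant control arrays 2 or 3, with log2 changes of -0.39 to -0.26 and adjusted p of 0.0542 to 0.113. Median centring moved it the other way, to -0.55.

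The structural genes differed by less than the spread between arrays. The microvillar actin gene act-5 had signals of 7373, 7663, 9022 and 8543 in the mutant, against 7522, 8276 and 7115 in N2 (log2 change 0.09, 95% interval -0.11 to 0.297, adjusted p = 0.506). The filament gene ifb-2 had 3229, 3190.05, 4315 and 3778 in the mutant, against 3539, 3731 and 2698 in N2 (log2 change 0.13, 95% interval -0.15 to 0.40, adjusted p = 0.482). Both signs turned with median centring, to -0.11 and -0.07, and neither passed there.

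**Figure D2:**
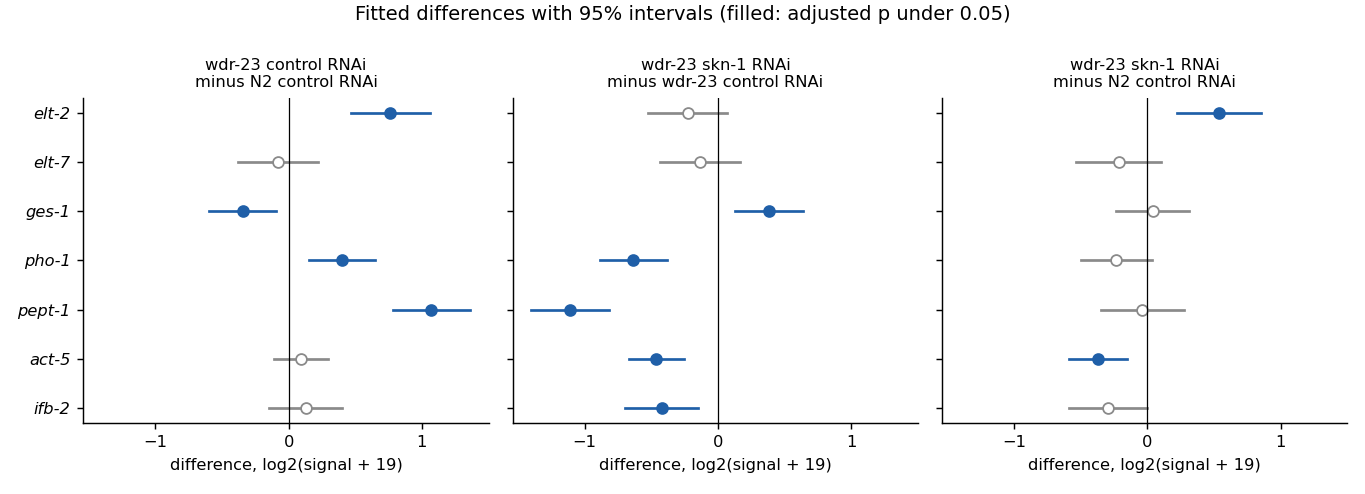
Fitted log2 differences (horizontal axis, log2 of signal plus 19) with 95% intervals for the 7 genes in the 3 comparisons, each named as the group on top minus its counterpart. Filled points passed at an adjusted p under 0.05: 4 of 7 between mutant and N2, 5 of 7 with skn-1 RNAi in the mutant, and 2 of 7 between the mutant with skn-1 RNAi and N2.

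The next comparison took wdr-23 animals alone and asked how these levels differ once skn-1 is knocked down. With skn-1 RNAi pept-1, pho-1, act-5 and ifb-2 fell and ges-1 rose, and neither GATA factor gene passed the test. That is 5 of 7 members called, 1 higher and 4 lower, where 23% of the genes tested were called (9.94% higher and 13.1% lower). The groups did not overlap for these 5 members, as for 33.7% of all genes tested. The median log2 change was -0.42, beside -0.02 over all genes tested. The mutant control arrays serve in this comparison and in the one with N2, so a deviation of those arrays enters both.

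Signals of pept-1 were 1473, 1955 and 2127 with skn-1 RNAi, against 3282 to 4606 on the 4 control RNAi arrays. The highest skn-1 RNAi array was well below the lowest control array. Means were 1852 ± 339 with skn-1 RNAi (SD, n = 3) and 4001 ± 546 with control RNAi (SD, n = 4), 2.16-fold lower, or -1.11 on the log2 scale (SE 0.14, limma adjusted p = 2.26e-05). Only 2.08% of the genes tested had a lower log2 change.

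Signals of pho-1 were 876, 938 and 738 with skn-1 RNAi, against 1263 to 1379 with control RNAi, with no overlap. Means were 851 ± 102 with skn-1 RNAi (SD, n = 3) and 1325 ± 52.9 with control RNAi (SD, n = 4), or -0.63 on the log2 scale (SE 0.12, limma adjusted p = 0.00119). Its dimmer probe set fell as well, with 839.6, 961 and 877 with skn-1 RNAi against 962 to 1438 with control RNAi (log2 change -0.40, adjusted p = 0.0442).

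Both structural genes fell with skn-1 RNAi. For act-5 the signals were 6184, 5903 and 5615 with skn-1 RNAi, against 7373 to 9022 with control RNAi, and the arrays did not overlap. Means were 5901 ± 284 with skn-1 RNAi (SD, n = 3) and 8151 ± 765 with control RNAi (SD, n = 4), or -0.46 on the log2 scale (SE 0.097, limma adjusted p = 0.00299). For ifb-2 they were 2544, 2798 and 2702 with skn-1 RNAi, against 3190.05 to 4315 with control RNAi. Means were 2682 ± 128 with skn-1 RNAi (SD, n = 3) and 3628 ± 531 with control RNAi (SD, n = 4), or -0.42 on the log2 scale (SE 0.13, limma adjusted p = 0.0276). The ifb-2 call ended without skn-1 RNAi array 1, 2 or 3 or mutant control array 3 or 4 (-0.45 to -0.34, adjusted p of 0.0548 to 0.102), and with median centring (-0.28, adjusted p = 0.12).

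The esterase gene ges-1 moved the opposite way. Its signals were 667, 663 and 688 with skn-1 RNAi, against 428 to 558 with control RNAi, all higher with skn-1 RNAi. On the log2 scale it changed by 0.38 (SE 0.12, limma adjusted p = 0.0301). The call ended without skn-1 RNAi array 1, 2 or 3 (0.37 to 0.39, adjusted p of 0.0743 to 0.0914) or mutant control array 2 (0.30, adjusted p = 0.0694).

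For elt-2 the signals were 299.7, 318 and 338 with skn-1 RNAi, inside the control RNAi range of 309.7 to 434 but for the lowest. The log2 change was -0.23 (SE 0.14, 95% interval -0.52 to 0.07, adjusted p = 0.263), and on the dimmer probe set -0.38 (adjusted p = 0.198). For elt-7 they were 302, 338 and 418 with skn-1 RNAi, against 323 to 428 with control RNAi, a log2 change of -0.13 (95% interval -0.43 to 0.17, adjusted p = 0.528). A fall of elt-2 by up to 0.52 on the log2 scale therefore lies within the interval.

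**Figure D3:**
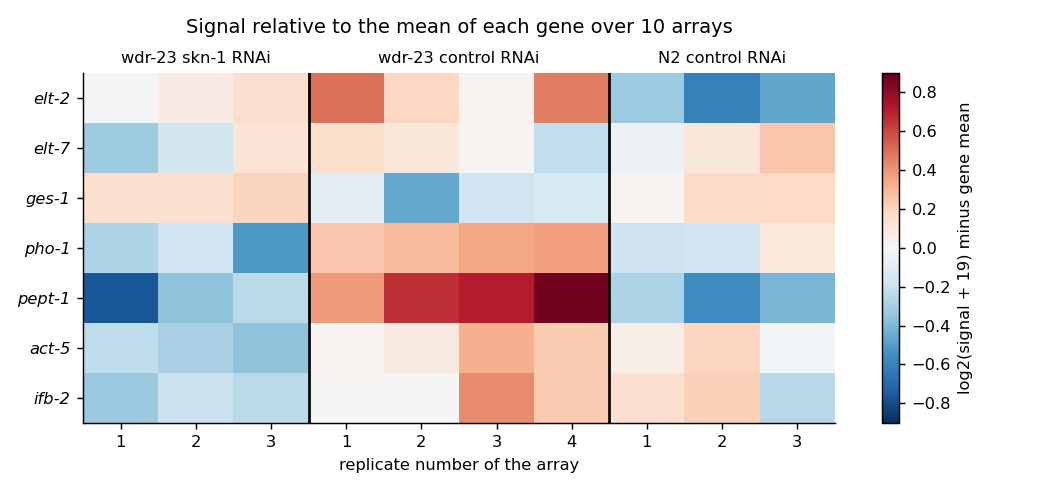
Log2 of signal plus 19, minus the mean of each gene over the 10 arrays, as colour (red higher, blue lower) for the 7 genes (rows) on each array (columns, by group and replicate number). In pept-1 and pho-1 the 4 mutant control arrays are all red, in ges-1 they are all blue, and elt-2 is deepest blue in N2.

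The mutant with skn-1 RNAi was then set against N2 on control RNAi, a comparison in which genotype and RNAi both differ. Of the 7 members, elt-2 was called higher and act-5 lower, where 6.67% of the genes tested were called (4.12% higher and 2.55% lower). These 2 members alone had groups that did not overlap, as did 26.6% of all genes tested. The median log2 change of the members was -0.22, beside 0.03 over all genes tested.

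The elt-2 signals were 299.7 to 338 in skn-1 RNAi mutants and 192 to 237 in N2. The means were 318 ± 18.9 (SD, n = 3) with skn-1 RNAi and 214 ± 22.7 (SD, n = 3) in N2, a 1.45-fold rise or 0.54 on the log2 scale (SE 0.15, limma adjusted p = 0.0415). This call ended without any of the 6 arrays of these groups (log2 change 0.47 to 0.61, adjusted p of 0.057 to 0.155). It also ended after quantile normalization (0.45, adjusted p = 0.1) and median centring (0.48, adjusted p = 0.0678). The dimmer elt-2 probe set was at 0.26 (adjusted p = 0.605), with skn-1 RNAi signals of 80.7, 193 and 141 that spread across the N2 range.

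The act-5 signals were 5615 to 6184 in skn-1 RNAi mutants and 7115 to 8276 in N2, a log2 change of -0.37 (SE 0.10, adjusted p = 0.0424). That call ended without N2 array 1 or 2 or skn-1 RNAi array 1, 2 or 3 (-0.40 to -0.31, adjusted p of 0.0667 to 0.166). For ifb-2 the log2 change was -0.29 (95% interval -0.59 to -0.0016, adjusted p = 0.257), with overlapping arrays. The other members had log2 changes of -0.04 for pept-1 (95% interval -0.35 to 0.27), 0.04 for ges-1 (-0.23 to 0.31), -0.23 for pho-1 (-0.50 to 0.03) and -0.22 for elt-7 (-0.54 to 0.11). These 4 did not pass the test, and the signals of the mutant with skn-1 RNAi overlapped those of N2.

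Ordered by mean log2 level, the mutant control group was highest for elt-2, pho-1, pept-1, act-5 and ifb-2 and lowest for ges-1. The order of the mutant with skn-1 RNAi and N2, its neighbours in pept-1, pho-1 and ges-1, did not pass the test in those 3 genes. For elt-2 the mutant with skn-1 RNAi came between the mutant control group, from which it did not differ by the test, and N2. For act-5 and ifb-2 the mutant control group and N2 were neighbours that did not differ by the test, and the mutant with skn-1 RNAi was lowest, below N2 by the test for act-5 but not for ifb-2. For elt-7 no pair of groups differed by the test.

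The members thus did not share a profile. As a description of likeness, the root-mean-square difference between centred log2 values over the 10 arrays was taken between genes. Among the 21 member pairs it was smallest for act-5 and ifb-2 (0.11) and next for pho-1 and act-5 (0.19), and largest for ges-1 and pept-1 (0.75). Of all genes tested, 0.124% were nearer to act-5 than ifb-2 was. All these values share the same arrays, and the group means enter them.

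Over all genes tested, the nearest profiles to pept-1 were those of nhr-120, a nuclear hormone receptor gene (0.12), and F53A9.6 (0.13), where the median gene was at 0.59. Mean signals of nhr-120 were 91.5 in the mutant with skn-1 RNAi, 203 in the mutant with control RNAi and 86.4 in N2. Nearest to elt-2 were moa-1 (0.094) and W09C3.7 (0.094), and W09C3.7 had means of 1996 in the mutant with skn-1 RNAi, 2285 in the mutant with control RNAi and 1380.3 in N2. Nearest to ges-1 were B0464.6 (0.059) and ttr-15 (0.063), a transthyretin-related gene. The nearest were T07F12.4 (0.0597) and T16H12.9 (0.0698) for pho-1, and cdd-2 (0.0904) and tfg-1 (0.0972) for elt-7. For act-5 they were nlp-24 (0.078) and tnt-4 (0.087), a troponin T gene. For ifb-2 they were slc-25A29 (0.0997) and pbo-4 (0.106), which encodes a sodium-proton exchanger of the posterior intestine.

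Other genes of the same functions came from lists, starting with nutrient transport and the proton supply that peptide uptake needs. Of 28 listed genes, 27 were named on the array and 26 tested. For this and the later lists, the shares over all genes tested were 18.9% higher and 10.2% lower between mutant and N2. With skn-1 RNAi in the mutant they were 9.94% higher and 13.1% lower. After median centring 40.9% and 30.9% were called in either direction, and after quantile normalization 25.3% and 21.5%. Between mutant and N2, 9 rose and 1 fell (median log2 change 0.23), and with skn-1 RNAi in the mutant 1 rose and 11 fell (median -0.33). The first median was 0.098 after quantile normalization (9 rose, 2 fell) and 0.025 after median centring (8 rose, 3 fell), and the other was -0.27 and -0.19. The single rise with skn-1 RNAi was lost without any of skn-1 RNAi arrays 1, 2 and 3 or mutant control arrays 1, 2 and 4, and a further gene fell between mutant and N2 without skn-1 RNAi array 1. The sweet-family sugar transporter gene swt-2 was highest in the mutant, with a mean of 497 ± 109 (SD, n = 4) against 12.03 ± 2.49 (SD, n = 3) in N2 (log2 change 4.03, adjusted p = 1.54e-11). Its N2 signal was below the 20th percentile of all signals (18.6), so this change depends on the value added before the logarithm, and was 5.25 with a pseudocount of 1 and 2.86 with a pseudocount of 64. Its mean in the mutant with skn-1 RNAi was 87.5 ± 9.55 (SD, n = 3), a fall (log2 change -2.26, adjusted p = 5.42e-08).

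The amino acid transporter gene aat-1 averaged 751 ± 127 (SD, n = 4) in the mutant and 155 ± 26.9 (SD, n = 3) in N2 (log2 change 2.14, adjusted p = 1.55e-08). It was still above N2 in the mutant with skn-1 RNAi (log2 change 1.19, adjusted p = 0.000196), as was swt-2 (1.78, adjusted p = 7.78e-06, and 0.99 with a pseudocount of 64 or 2.77 with a pseudocount of 1). The gene swt-7 fell with skn-1 RNAi (-1.19, adjusted p = 3.93e-07) to a level below N2 (-0.54, adjusted p = 0.00756), although that last call ended without skn-1 RNAi array 2 (-0.47, adjusted p = 0.0516). The proton pump subunit gene vha-6, expressed in the intestine, fell with skn-1 RNAi (-0.78, adjusted p = 7.87e-05). The fall of the list was led by swt-2 and swt-7, and swt-6 was the only gene lower in the mutant than in N2 (-0.95, adjusted p = 0.00766), with overlapping arrays and a call that ended without N2 array 3 (-0.65, adjusted p = 0.0514). The exchanger gene nhx-2, a known partner of PEPT-1 named here outside the rule, was at -0.39 between mutant and N2 (adjusted p = 0.152).

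Of 22 genes of the terminal web and apical junction, 21 were tested. Between mutant and N2, 5 rose and 1 fell, a share close to the 29% called over all genes tested. The list median was 0.17, and -0.03 with median centring, where 2 rose and 3 fell. With skn-1 RNAi in the mutant 1 rose and 5 fell (median -0.23), beside 23% called over all genes tested, and 3 rose and 3 fell with median centring. These counts also rested on single arrays. Only 3 rose in the mutant against N2 without N2 array 1, 1 rose without N2 array 2, and 2 fell without mutant control array 1. With skn-1 RNAi, 2 fell without skn-1 RNAi array 1 and 3 fell without array 2 or 3, and 2 rose without mutant control array 1. The intestinal filament genes did not move alike. The filament gene ifp-1 was higher in the mutant than in N2, at 588 ± 79.1 (SD, n = 4) in the mutant against 294 ± 60.1 (SD, n = 3) in N2 (log2 change 0.96, adjusted p = 0.000125). Its relative ifc-1 was lower, at 372 ± 53.2 (SD, n = 4) in the mutant against 731 ± 24.5 (SD, n = 3) in N2 (-0.95, adjusted p = 2.54e-05).

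With skn-1 RNAi in the mutant ifp-1 fell (-0.77, adjusted p = 0.00125) and ifc-1 rose (0.75, adjusted p = 0.000395). The filament gene ifd-2 fell then too (-0.64, adjusted p = 0.000994), beside the falls of ifb-2 and act-5. The muscle and cytoplasmic actin genes act-3 and act-4, the only other actins named alone on the array, were at -0.26 and -0.03 between mutant and N2 and at 0.25 and 0.10 with skn-1 RNAi, and neither passed, although after median centring 1 of the pair was called lower and then 1 higher.

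Of 16 acid phosphatase genes on the array, 15 were tested. Between mutant and N2, 4 rose and 3 fell, where 29% of all genes tested were called (median 0.13, and -0.06 and -0.08 after quantile normalization and median centring). With skn-1 RNAi in the mutant, 2 rose and 3 fell, where 23% of all genes tested were called (median -0.06, and 0.02 and 0.08 under those scalings). Only 1 rose without skn-1 RNAi array 1 or 2 or any of the 4 mutant control arrays, and 2 fell without skn-1 RNAi array 1. The strongest was pho-8, at 779 ± 81.5 (SD, n = 4) in the mutant and 310 ± 21.9 (SD, n = 3) in N2 (log2 change 1.27, adjusted p = 1.3e-06), and it fell with skn-1 RNAi (-1.11, adjusted p = 9.7e-06). In the opposite sense acp-6 was lower in the mutant (-0.52, adjusted p = 0.000788) and higher with skn-1 RNAi (0.42, adjusted p = 0.00478).

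Of the gut granules, the lysosome-related stores of intestinal cells, 10 genes were tested. Between mutant and N2, 3 rose and 1 fell, where 29% of all genes tested were called. With skn-1 RNAi in the mutant 4 fell, where 23% of all genes tested were called, and 2 rose and 4 fell after median centring. The list median between mutant and N2 was 0.26, and 0.10 and 0.06 after quantile normalization and median centring. With skn-1 RNAi it was -0.28, and -0.19 and -0.13 under those scalings. Only 2 rose in the mutant against N2 without N2 array 1, and the single fall was lost without N2 array 1 or 3 or mutant control array 2 or 4. The granule gene glo-3 led both, at 0.95 (log2, adjusted p = 0.000861) in the mutant and at -1.06 (adjusted p = 0.000442) after skn-1 RNAi. Of 5 listed genes of endoderm specification and related GATA factors, end-1 and end-3, which act in the embryo before elt-2, were bright enough to test. Both missed the threshold in all 3 comparisons.

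Of 17 other intestine genes, 2 rose and 8 fell between mutant and N2 (median -0.28), and 5 rose and 4 fell with skn-1 RNAi in the mutant (median 0.09). Beside these, 29% and 23% of all genes tested were called, 40.9% and 30.9% after median centring, and 25.3% and 21.5% after quantile normalization. In the mutant against N2, median centring gave 2 rises and 11 falls (median -0.48), quantile normalization 2 and 7 (median -0.23), and 5 fell without N2 array 2. With skn-1 RNAi the median was 0.23 after median centring and -0.0011 after quantile normalization. The lysozyme gene lys-8 rose in the mutant (0.68, adjusted p = 5.36e-05), and so did pqm-1, a transcription factor gene expressed in the intestine (0.61, adjusted p = 0.00154). The cathepsin B-like genes cpr-1 (-3.26, adjusted p = 1.27e-11) and cpr-4 (-1.49, adjusted p = 8.41e-09) fell there. With skn-1 RNAi both rose, cpr-1 to 7203 ± 811 (SD, n = 3) against 893 ± 179 (SD, n = 4) with control RNAi, and cpr-4 by 2.23 on the log2 scale. Between the mutant with skn-1 RNAi and N2, where 6.67% of all genes tested were called, 1 of the 17 rose and 4 fell, among them the iron-storage gene ftn-1 (-1.41, adjusted p = 6.55e-06).

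**Figure D4:**
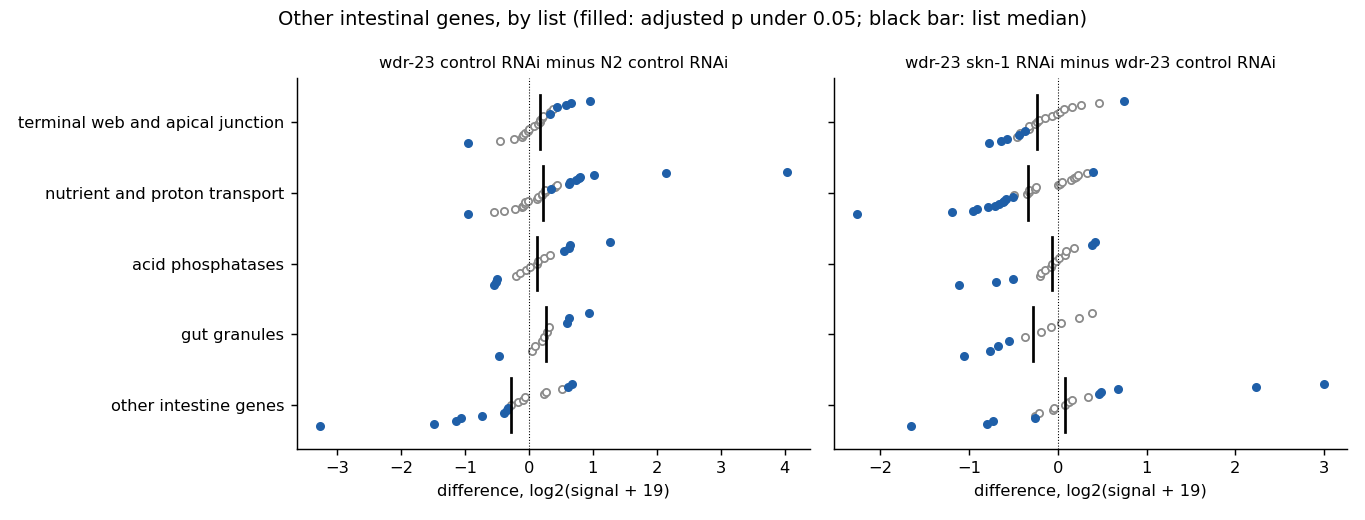
Log2 differences (horizontal axes, log2 of signal plus 19) of the tested genes of 5 lists (rows) between mutant and N2 on control RNAi and between skn-1 RNAi and control RNAi in the mutant. Each point is a gene, filled at an adjusted p under 0.05, and the black bar is the list median, which runs from -0.28 to 0.26 on one side and from -0.33 to 0.09 on the other.

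Markers of other tissues were read in the same samples. Of all genes tested, 29% were called between mutant and N2 and 23% with skn-1 RNAi in the mutant. After median centring these shares were 40.9% and 30.9%, and after quantile normalization 25.3% and 21.5%. The summed signal of 10 neuron markers was 5654 to 6034 in skn-1 RNAi mutants, 6928 to 7782 in the mutant with control RNAi and 5811 to 6230.1 in N2. Of these 10, 4 rose between mutant and N2, and 2 did after quantile normalization, after median centring or without N2 array 3. With skn-1 RNAi in the mutant 3 neuron markers fell and 0 rose (median log2 change -0.33), and 3 fell under both other scalings too. The sum of 10 germ line markers was 27615 to 28775 in skn-1 RNAi mutants, 21551 to 22662 in the mutant with control RNAi and 24714 to 26226 in N2. Of these 10, 6 rose with skn-1 RNAi in the mutant, 3 without skn-1 RNAi array 2 and 8 after median centring. The mutant against N2 gave 1 fall, 2 without N2 array 2 or 3 and 7 after median centring. For body-wall muscle the sums were 42963 to 47127 with skn-1 RNAi, 46420 to 48069 in the mutant control arrays and 45847 to 49338 in N2. Those of the pharynx were 10896 to 11822 with skn-1 RNAi, 11915 to 13831 in the mutant control arrays and 10766 to 12891 in N2. Those of the epidermis were 40921 to 51280 with skn-1 RNAi, 37240.1 to 44637 in the mutant control arrays and 36344 to 49346 in N2, and overlapped across all groups. Between mutant and N2, 3 body-wall muscle markers rose, 2 pharynx markers rose and 1 fell, and 4 epidermis markers rose and 1 fell. After median centring these lists gave 2 rises and 2 falls, 1 and 1, and 3 and 2. With skn-1 RNAi in the mutant, 1 muscle marker and 4 pharynx markers fell, and 1 epidermis marker rose and 3 fell. Median centring there gave 1 rise in muscle, 3 falls in the pharynx, and 3 rises and 3 falls in the epidermis. The sum over the 17 other intestine genes was 85778 to 100338 in skn-1 RNAi mutants, 73474 to 80570 in the mutant with control RNAi and 95419 to 104716 in N2. The part of tissue make-up in the changes of the 7 genes was not tested.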

How the data were processed

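The authors deposited 1 table of linear array intensity values, MAS5 signals per the submitters' processing notes, with no version given there. RNA (250 ng) was hybridised to Affymetrix C. elegans arrays, per the labels. In the deposited values each array's mean, trimmed by 2% at each end, was about 500, so arrays had been scaled to a shared level. Of 22625 probe sets, 77 controls were left out, and 20766 named 1 gene. Of these, 20701 matched the reference table by gene number, and 0 symbols changed. Of the 9 member probe sets, 5 carry a suffix that marks probes shared between transcripts. They are all the probe sets of ges-1, pho-1, act-5 and ifb-2, and those of elt-2, elt-7 and pept-1 lack it.
Signals were taken to log2 after adding 19, the rounded 20th percentile, and probe sets whose mean on that scale was in the lowest 30% (cutoff 5.71) were dropped. Models for the remaining 15783 used limma 3.58.1 under R 4.3.3 (lmFit, eBayes with an intensity trend, two-sided, 3 groups in a single fit), with Benjamini-Hochberg adjustment over all of them in each comparison. Counts over genes use each gene's brightest probe set by mean signal (12061 tested). Folds are powers of 2 of the log2 change, and means and SDs are of signals. The fit was tested on simulated data with independent noise and changes of known size in the mutant control group. Those data held no array-wide shift and no shared batch, so neither was covered. No 2 arrays held identical values. Precision is set by how many arrays there are. Replicate numbers were not taken as pairs, because the labels name no shared batch, day or litter. Residual correlations ran from -0.16 to 0.18 between arrays with the same replicate number and from -0.17 to 0.17 between others. They cannot show whether a batch was shared. Figures used python 3.11.15 and matplotlib 3.10.9.
Members and gene lists were chosen with earlier results of these data known. Named genes were the members, wdr-23, skn-1, the called genes of each list and comparison that moved most (up to 2 in each direction), and the 2 genes nearest in profile to each member. Alternatives were other scalings, pseudocounts, filters, variance models, probe sets and groups in the fit, a replicate block, and leaving out each array. No sequences are shown, and gene positions are not used here.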

Additional observations from a re-analysis of the deposited data

Results flagged for a closer look

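None of the 7 members had an array that stood apart from the others of the 4-array group. Among 65 genes examined for this in the mutant with control RNAi, 3 did, and chance gives about 1 in 20. The junction gene dlg-1 had a signal of 1340.4 on replicate 4 and 724 to 813 on the other arrays (gap over range 0.855), and its log2 change between mutant and N2 was 0.66 (adjusted p = 0.0119), a call that ended without N2 replicate 2 (0.58, adjusted p = 0.0544) or without suffixed probe sets (0.12, adjusted p = 0.598). The lysosomal membrane gene lmp-1 had 3867 on replicate 4 and 4708 to 4759 on the others (0.942), and its log2 change with skn-1 RNAi in the mutant was -0.67. Between mutant and N2 lmp-1 was not called with all arrays, and was called higher without that replicate 4 (0.31, adjusted p = 0.0332). The iron-storage gene ftn-1 had 544 on replicate 3 and 422 to 430.4 on the others (0.928), and its log2 change with skn-1 RNAi was -1.65.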

How the results depend on the processing

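Of the calls among the 7 genes, elt-2 and pept-1 between mutant and N2, and pept-1, pho-1 and act-5 with skn-1 RNAi in the mutant, held under every alternative that gave a value. Leaving out suffixed probe sets gave no value for pho-1 or act-5. No called change turned sign. Between mutant and N2, 4 of 7 members were called, 2 with the replicate block, 2 of 3 without suffixed probe sets, 3 with median centring (pho-1 lost) or with only the compared groups fitted (ges-1 lost, adjusted p = 0.0751), and 2 to 4 when an array was left out. With skn-1 RNAi in the mutant the count of 5 became 1 of 3 without suffixed probe sets, 4 with median centring, the replicate block, no filter (ifb-2 lost, adjusted p = 0.0503) or no intensity trend (ifb-2 lost, adjusted p = 0.0579), and ran from 3 to 5 with an array left out. Between the mutant with skn-1 RNAi and N2 the count of 2 became 1 after quantile normalization, median centring, the replicate block or without suffixed probe sets, 0 without the filter or without the intensity trend, and 0 to 2 with an array left out. Of all genes tested, 29%, 23% and 6.67% were called in these comparisons. With median centring the shares were 40.9%, 30.9% and 6.47%, and with quantile normalization 25.3%, 21.5% and 5.71%. The 3 of 7 members called between mutant and N2 with median centring were thus close to the share over all genes.
With the replicate block the lost calls were ges-1 (-0.37, adjusted p = 0.0535) and pho-1 (0.38, adjusted p = 0.0518) between mutant and N2, ifb-2 with skn-1 RNAi (-0.40, adjusted p = 0.0762) and act-5 between the mutant with skn-1 RNAi and N2 (adjusted p = 0.0736). The labels do not say whether arrays with the same number shared a batch, and the residual correlations cannot settle it.
Over all 15783 probe sets tested the calls were 4344, 3558 and 1001 in the order of the report, and 2759, 2097 and 609 of 11086 without suffixed ones. The replicate block gave 3815, 2918 and 1016, only the compared groups 3787, 3394 and 1065, and no intensity trend 4141, 3238 and 889. Without the filter they were 3879, 3013 and 734 of 22548. Leaving out an array gave 2861 to 4120, 2218 to 3536 and 523 to 1047. Higher against lower calls were 2754 and 1590, then 1577 and 1981, then 613 and 388. Quantile normalization gave 1942 and 1960, 1720 and 1623, and 457 and 414, and median centring gave 1671 and 4613, 3463 and 1308, and 476 and 514. Median centring moved the median of all genes by -0.20, 0.15 and -0.06. With quantile normalization the median of the shifts of single genes was -0.11, 0.05 and -0.04. The cause of the lost calls was not tested.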
